A study of Arabidopsis thaliana with 18 samples.

Results

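A set of 150 genes of Arabidopsis thaliana is described here, whose transcripts were lower in shoot apices upon a far-red-enriched photoperiod (FRP) in the wild type (WT) and in tfl1 mutants and were level in ft mutants. The genes were chosen by measured values. For each genotype, the log2 ratio of the mean CPM (counts scaled to equal library totals) of the 3 FRP libraries over that of the 3 untreated libraries was taken, with 0.5 CPM added to each mean. Of the 37336 genes in the files, 16929 had a mean of at least 5 CPM in at least 1 of the 6 conditions, and 9061 of these had a log2 ratio between -0.25 and 0.25 in ft. The 150 members are those 9061 genes whose larger log2 ratio of WT and tfl1 was lowest. Hence their fall in WT and tfl1 and their flat course in ft are what selected them and are given as a description, with no test.

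The series compared 3 genotypes in the Col-0 ecotype, tfl1-1, ft-10 and wild type, each with a single 24 h FRP and without treatment, as 3 libraries per condition and 18 in all. Plants were 42 days old and had grown in short days of 8 h light and 16 h dark, and the FRP began at the end of the day. Inflorescence shoots were collected after leaves and roots had been taken off, and their RNA was sequenced in bulk. Per the study's methods, control plants stayed in short days, with 16 h dark, for the same 24 h, whereas the labels give untreated libraries as 0 h of FRP. The FRP light was also dimmer and had a lower ratio of red to far-red than the control light. Effects of spectrum, light intensity and the dark period cannot be told apart in this design.

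FT is the florigen, a small protein made in leaves under inductive light that moves to the apex and, with the bZIP factor FD, switches on flower-promoting genes. TFL1 is a close relative that acts with FD in the opposite direction and keeps the meristem indeterminate. Far-red-rich light lowers the active pool of phytochrome, and phytochromes control genes for both flowering and the chloroplast. Most proteins of the photosynthetic apparatus are encoded in the nucleus and imported into plastids, where photosystem II, the cytochrome b6f complex, photosystem I and the ATP synthase sit in the thylakoid membrane and plastid ribosomes make the partner subunits.

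Counts of FT and TFL1 did not serve as a check of the labels. FT had 11 to 36 counts in the 6 libraries labelled ft, against 0 to 3 counts in the 12 other libraries, and TFL1 had 1461 to 1647 counts in the 3 FRP libraries labelled tfl1. The ft-10 allele is an insertion and tfl1-1 a base change, so reads counted over the whole gene need not be lost in either mutant. Libraries held 20470477 to 35851716 counts. STM, which marks the shoot meristem, was at 91.4 to 254.0 CPM in every library. The 8 root markers summed to 30.5 to 45.0 CPM, most of it SHR at 24.6 to 40.6 CPM, with WOX5 at up to 3.54 CPM and PLT1 and RHD6 at 0. The 5 floral organ markers summed to 2.99 to 5.82 CPM, most of it SHP1 at 2.45 to 5.55 CPM, with PI at up to 0.681 CPM and AP3, AG and SEP3 at no more than 0.311 CPM.

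The counts of the replicates did not all vary independently of each other. In 5 of the 6 conditions, the counts of replicate 3 lay close to a weighted sum of the counts of replicates 1 and 2. The median squared deviation from this sum was 1.11 to 1.31 times that expected from counting alone. Between replicates 1 and 2 of the same conditions, the median squared difference was 3.03 to 27.0 times its expectation. Only untreated WT was different. There the squared difference of replicate 1 from replicates 2 and 3 was 58.2 and 56.4 times its expectation, and that between those 2 was 4.48 times. Outside untreated WT, replicate 3 therefore added little spread of its own and cannot be relied on as an independent sample. How this arose was not tested. Each library's value is given in place of an SD. The labels mark 12 libraries, 2 per condition, as those analysed for differential expression, and each of these pairs holds replicate 3. The 12-library fit, like every statement that all 3 libraries of a group lie apart from another group, takes replicate 3 as a sample. Its SEs and adjusted p are therefore likely too small. The biological coefficient of variation was 0.0738 in these 12 libraries. It was 0.139 with replicates 1 and 2 of every condition but 2 and 3 of untreated WT, and 0.205 with replicates 1 and 2 throughout, which also brings in the untreated WT library that stood apart. Values from one or both of these sets are given beside the 12-library results.

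Where a light-dependent photosynthesis gene carries a known promoter element, it is often a G-box (CACGTG), which bHLH and bZIP factors bind, or an I-box (GATAAG). Windows of 250 bases upstream of the annotated start were read from the RefSeq annotation of TAIR10.1 for 148 members. CACGTG was found in 14 of them (9.46%), against 7.59% of the 16636 windows of genes at 5 CPM or more and 6.49% of all 27443 protein-coding genes. Among the 61 members annotated to the chloroplast the share was 13.1%, against 8.29% of the 2244 other chloroplast genes. GATAAG, read on both strands, was in 16.2% of the members' windows, against 12.3% of those of genes at 5 CPM or more. Of the other motifs read, ACGTG, which lies inside CACGTG, was in 29.7% against 23.2%, AAATATCT (the evening element) in 7.43% against 5.07%, TGGGCC in 14.9% against 17.9%, TGGGCT in 13.5% against 15.2%, AAACCCTA in 3.38% against 3.59%, TTGAC in 38.5% against 43.9%, CCGAC in 14.2% against 13.2% and TATAAA in 46.6% against 45.6%. A match is a description of the letters and not a bound site.

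Of the members with a G-box, 6 are shown by the last 120 bases before their start, 5′ to 3′ on the gene's own strand, with CACGTG in capitals, because they span a photosystem subunit, a dehydrogenase subunit, a peptide, a ferredoxin-like protein and a redox enzyme.
PSBTN: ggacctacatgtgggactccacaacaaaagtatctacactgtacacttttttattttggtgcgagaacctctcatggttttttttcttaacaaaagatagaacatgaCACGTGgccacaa
PSBQA: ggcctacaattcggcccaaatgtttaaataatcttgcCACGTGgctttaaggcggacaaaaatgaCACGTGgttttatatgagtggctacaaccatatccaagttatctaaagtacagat
PnsB5: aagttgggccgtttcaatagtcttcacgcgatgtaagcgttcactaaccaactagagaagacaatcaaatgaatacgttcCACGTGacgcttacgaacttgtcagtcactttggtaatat
RTFL17: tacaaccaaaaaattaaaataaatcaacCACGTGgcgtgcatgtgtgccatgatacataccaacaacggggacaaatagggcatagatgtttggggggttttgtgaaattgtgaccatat
FdC2: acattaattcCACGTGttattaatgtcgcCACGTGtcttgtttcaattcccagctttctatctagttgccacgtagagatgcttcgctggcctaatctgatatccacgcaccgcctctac
DHAR3: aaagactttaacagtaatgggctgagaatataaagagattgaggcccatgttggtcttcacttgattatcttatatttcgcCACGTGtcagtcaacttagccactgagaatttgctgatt
These windows are chr3:7377227-7377346 on the minus strand (PSBTN), chr4:11334232-11334351 on the plus strand (PSBQA), chr5:17581276-17581395 on the minus strand (PnsB5), chr1:4526205-4526324 on the minus strand (RTFL17), chr1:11774295-11774414 on the minus strand (FdC2) and chr5:5483140-5483259 on the plus strand (DHAR3), in TAIR10.1. The element began 13 bases before the start in PSBTN, 39 in DHAR3, 40 in PnsB5 and 92 in RTFL17. PSBQA held a pair of copies at 83 and 55 bases, and FdC2 a pair at 110 and 91 bases.

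The I-box lay farther out in a photosystem I gene and a plastid ribosome gene, shown by the last 200 bases with GATAAG, or CTTATC where it is on the opposite strand, in capitals.
PSAD-1: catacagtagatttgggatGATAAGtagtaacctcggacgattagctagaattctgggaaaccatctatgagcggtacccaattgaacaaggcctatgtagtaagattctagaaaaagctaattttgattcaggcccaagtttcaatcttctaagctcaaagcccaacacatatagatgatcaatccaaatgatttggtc
PSRP6: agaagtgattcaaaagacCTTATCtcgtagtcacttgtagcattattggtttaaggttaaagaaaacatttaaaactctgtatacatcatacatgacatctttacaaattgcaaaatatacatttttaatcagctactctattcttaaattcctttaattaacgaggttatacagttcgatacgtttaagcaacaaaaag
They are chr4:1230165-1230364 on the minus strand (PSAD-1) and chr5:5907389-5907588 on the plus strand (PSRP6), and the element began 181 and 182 bases before the start.

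All 150 members were at least 2-fold lower after FRP in both WT and tfl1, and 6 were at least 4-fold lower in both. The median log2 ratio was -1.35 in tfl1 (-3.66 to -1.07), -0.12 in ft (-0.25 to 0.23) and -1.52 in WT (-3.31 to -1.07). Within the permitted band, the ft ratio was below 0 for 122 members and above 0 for 28. The fall was larger in WT than in tfl1 for 105 members and larger in tfl1 for 45. Among the last genes inside the threshold were AT4G15630 at -1.075, the thylakoid lumen protein gene AT4G02530 at -1.073 and RMA1, a membrane-anchored RING E3 ligase gene, at -1.072. Just outside it were AT4G00895 at -1.069, LOG1, a cytokinin-activating enzyme gene, at -1.069 and AT2G27290 at -1.067. In such bulk tissue, fewer cells of a type and less RNA per cell cannot be told apart.

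With all 18 libraries, the 3 FRP libraries lay below the 3 untreated libraries for 150 of 150 members in tfl1, against 30.3% of genes at 5 CPM or more, and for 150 of 150 in WT, against 30.4%. In ft this was so for a number of members too, PSBTN, PSBW, RPS9, RPL12-A, EMB3113 and EMB3137 among them. It was not so for others such as PSBR and STOMAGEN. Neither their number nor the share over all genes is given for ft, so nothing is read from these examples about the members. A ratio within the band thus does not mean that the ft groups overlapped. In edgeR's quasi-likelihood test on the 12 libraries, with an adjusted p (Benjamini-Hochberg) of at most 0.005, all 150 were called lower upon FRP in tfl1 (21.5% of the 21277 genes tested) and all 150 in WT (33.4%). None was called in ft (25.4% in either direction), where 8 members were higher and 1 was lower at an unadjusted p below 0.05 and DESeq2 called 1. Nothing is read from these counts, since the same contrasts chose the members. With replicates 1 and 2 only, 114 were called lower in tfl1 (4.51% of all genes) and 124 in WT (6.28%), and with replicates 2 and 3 of untreated WT instead, 148 in tfl1 (12.1%) and 149 in WT (26.7%).

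A fall of this size in both genotypes was usually accompanied by a lower level in ft too. Of the 561 genes at 5 CPM or more that fell as far as the members in WT and tfl1, 392 had an ft ratio below the band, 150 were within it and 19 were above it, with a median of -0.45. Over all 16929 genes at 5 CPM or more, the ft ratio had a median of -0.04 and a lower quartile of -0.27. The set is thus the part of a wider group that was level in ft at a band of 0.25.

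**Figure D1:**
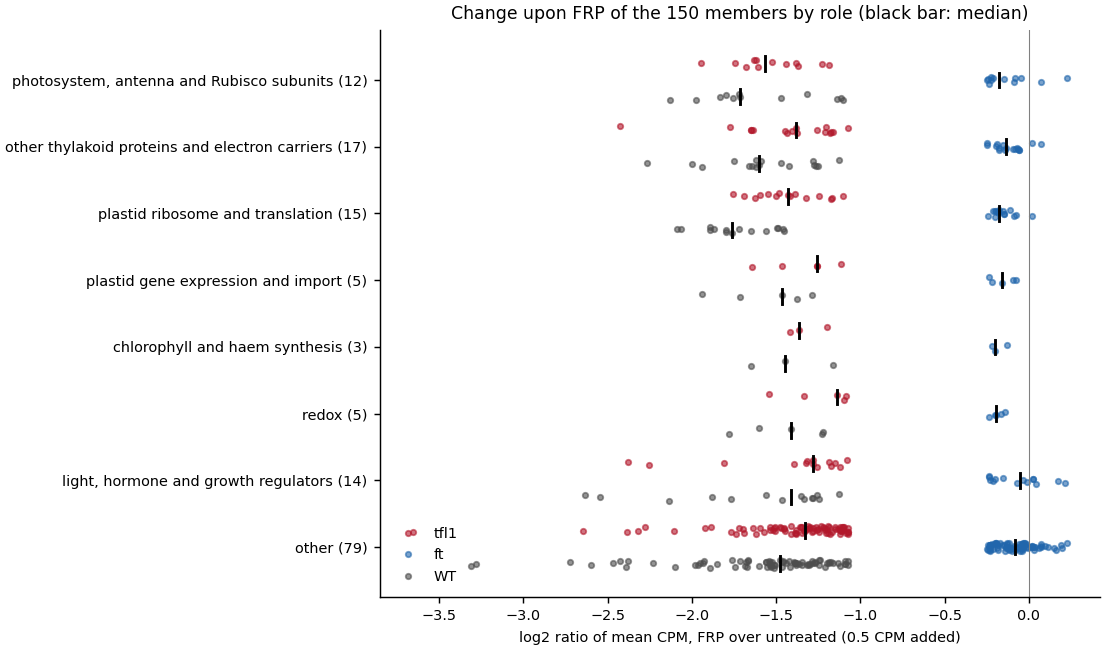
Change upon FRP of the 150 members by role, as the log2 ratio of mean CPM of FRP over untreated libraries with 0.5 CPM added (x axis), with each point 1 gene, colours for tfl1, ft and WT, and black bars for medians. In photosystem, antenna and Rubisco genes the medians are -1.57 in tfl1, -0.18 in ft and -1.72 in WT, and every role shows the same separation, which the choice of the members fixes.

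What the rule did not use is what these genes encode. In the RefSeq annotation, 61 of the 150 members (40.7%) name the chloroplast, plastid or thylakoid as location, against 2305 of 16929 genes at 5 CPM or more (13.6%) and 1210 of the 9061 genes level in ft (13.4%). Counted among genes that name any compartment, these shares were 67.8% of 90 members and 21.8% of 10584 genes. The thylakoid was named for 30 members (20%), against 273 of the genes at 5 CPM or more (1.61%). Nearer to the members are the 411 genes that fell as far in WT and tfl1 but were not level in ft. Of these, 119 (29.0%) name the chloroplast, plastid or thylakoid and 46 (11.2%) the thylakoid. None of the 90 members that name a compartment names the mitochondrion, against 6.73% of the 10584 such genes at 5 CPM or more. A location is given for 105 members, but some of these entries give only a number of components, as for AGT and RPL12-A. Their compartments could not be read. All members lie on the 5 nuclear chromosomes (36, 30, 29, 25 and 30 from chromosome 1 to 5). No member lay next to another along a chromosome.

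Chloroplast location alone did not carry the pattern. The 2244 chloroplast genes at 5 CPM or more that are no members had median log2 ratios of -0.08 in tfl1, -0.11 in ft and -0.17 in WT, and 119 of them fell as far as the members in WT and tfl1. For the 243 other thylakoid genes the medians were -0.68 in tfl1, -0.18 in ft and -0.77 in WT. Thus the median transcript of other plastid proteins stayed near its untreated level, whereas that of other thylakoid proteins was lower in tfl1 and WT.

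Members were also short. Their median transcript length was 1068 bases, against 1784.5 bases for genes at 5 CPM or more, and they had a median of 2 exons, against 5. Length moved with the libraries as well. The slope of log2 CPM on log2 transcript length, relative to the mean of the libraries, was 0.08 to 0.45 in FRP tfl1 and -0.37 to -0.16 in untreated tfl1, -0.28 to -0.02 in FRP ft and -0.05 to 0.04 in untreated ft, and 0.42 to 0.45 in FRP WT. In untreated WT it was -0.48 and -0.47 in replicates 3 and 2 but 0.11 in replicate 1. With a smooth trend on length removed from each library, the members' median log2 ratio was -1.15 in tfl1, -0.21 in ft and -1.24 in WT, 109 members in tfl1 and 111 in WT remained at least 2-fold lower, and 88 remained within the ft band.

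A second library property that moved with the members was the level of leaf mesophyll genes. The 6 markers (RBCS1A, RBCS2B, RBCS3B, LHCB1.3, LHCB2.1 and CA1, none of them a member) summed to 2890 to 3714 CPM in FRP tfl1 and 12413 to 13614 CPM in untreated tfl1, to 7508 to 8289 CPM in FRP ft and 11157 to 12031 CPM in untreated ft, and to 2816 to 4160 CPM in FRP WT and 12868 to 13195 CPM in untreated WT. All 6 were detected in every library. Hence the mesophyll sum, most of it LHCB1.3 and RBCS1A, was lower after FRP in all 3 genotypes, ft included. The exception was LHCB2.1 in ft, with a mean of 189.9 CPM upon FRP and 95.7 CPM untreated. The 6 shoot meristem markers (STM, WUS, CLV3, KNAT1, KNAT2 and UFO) summed to 350.2 to 458.6 CPM in FRP libraries and 159.5 to 200.8 CPM in untreated ones, in all 3 genotypes. STM, KNAT1 and KNAT2 made up nearly all of this sum. CLV3 had a mean of 0.138 CPM in FRP ft against 0.333 CPM in untreated ft, and of 0.0926 CPM in FRP WT against 0.483 CPM in untreated WT. Phloem markers summed to 96.1 to 181.2 CPM in FRP tfl1, 82.6 to 126.4 CPM in FRP ft and 192.5 to 245.4 CPM in FRP WT, against 41.6 to 91.9 CPM in untreated libraries. The part of transcript length and of tissue makeup in the members' fall was not tested beyond these values.

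**Figure D2:**
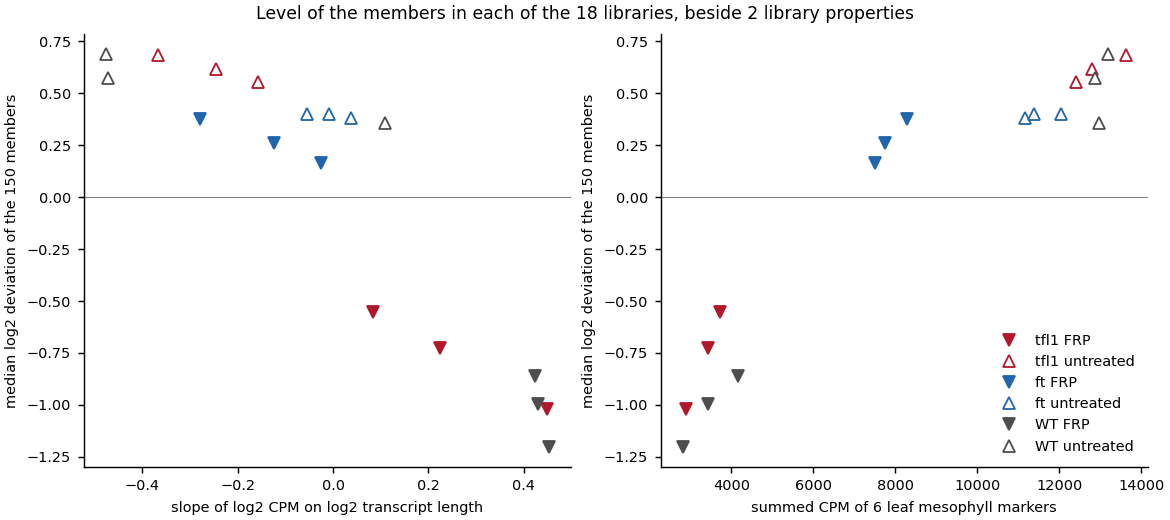
Median log2 deviation of the 150 members from their mean over the 18 libraries (y axis), 1 point per library, against the slope of log2 CPM on log2 transcript length (left) and the summed CPM of 6 leaf mesophyll markers (right). The FRP libraries of tfl1 (-1.02 to -0.55) and WT (-1.20 to -0.86) lie below 0, and the FRP libraries of ft (0.16 to 0.38) lie with or just under the untreated ones (0.36 to 0.69).

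Subunits of the photosystems, the light-harvesting antenna and Rubisco, grouped with related proteins such as PPL1 (PsbP-like protein 1), made up 12 members. Their median log2 ratios were -1.57 in tfl1, -0.18 in ft and -1.72 in WT. PSBR, a photosystem II subunit beside the oxygen-evolving complex (AT1G79040, chr1:29735952-29737009), was among the most abundant. It had 320, 225 and 281 CPM in replicates 1, 2 and 3 of FRP tfl1, against 929, 835 and 888 CPM in untreated tfl1. The ft libraries were at 721, 612 and 643 CPM after FRP, against 720, 692 and 692 CPM without treatment. In WT the FRP libraries had 267, 185 and 230 CPM, against 660, 766 and 883 CPM in untreated ones. FRP and untreated libraries overlapped in ft only, and all 6 ft values were above every FRP value of tfl1 and WT.

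PSBTN, the nuclear-encoded T subunit of photosystem II, whose G-box window is shown above, had the largest fall in WT of these subunits. It was at 146, 103 and 131 CPM in FRP tfl1, against 444, 408 and 423 CPM in untreated tfl1. The ft libraries had 367, 296 and 312 CPM upon FRP, against 409, 371 and 374 CPM untreated, and the WT libraries had 118, 81.5 and 96.1 CPM, against 334, 440 and 524 CPM. Here even the ft groups did not overlap, the FRP libraries being the lower, for a log2 ratio of -0.24 that is close to the edge of the band.

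PSBW, a small photosystem II subunit, followed the same course, with 231, 175 and 207 CPM in FRP tfl1 and 659, 595 and 618 CPM in untreated tfl1. Its ft values were 481, 424 and 448 CPM upon FRP and 525, 526 and 530 CPM untreated, so that FRP ft was lower without overlap. PSBQA, an extrinsic protein of the oxygen-evolving complex, had log2 ratios of -1.53 in tfl1, -0.22 in ft and -1.72 in WT. On the photosystem I side, PSAD-1, which helps dock ferredoxin, had 175, 167 and 172 CPM in FRP tfl1 and 397, 370 and 401 CPM in untreated tfl1, with log2 ratios of -1.18 in tfl1, -0.25 in ft and -1.11 in WT. PSAD-1 and its near copy PSAD-2 were both members, as were LHCB2.2 and RBCS1B, each of which has close paralogs, so that the split of reads between copies is uncertain for all 4.

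RBCS1B, a Rubisco small subunit gene, sat at the other end of the ft band. It had 66.7, 54.2 and 56.2 CPM in FRP ft, against 49.1, 51.8 and 50.4 CPM in untreated ft. It was at 15.4, 9.15 and 13.4 CPM in FRP tfl1, against 51.7, 49.7 and 49.0 CPM in untreated tfl1. FRP ft was thus the higher without overlap, where FRP tfl1 was the lower. Untreated WT ranged widely, at 63.2, 25.9 and 35.99 CPM, against 21.9, 10.7 and 16.7 CPM in FRP WT.

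Among all 47 measured genes of a list of photosystem, antenna and Rubisco small subunits, 8 were members. The 12-library test called 46 lower upon FRP in tfl1, 8 in ft and 44 in WT, with medians of the fitted log2 fold change of -1.65, -0.25 and -1.64 in that order, beside medians of 0.02, -0.01 and -0.02 over all genes tested. Of all genes tested, 21.5% were called lower in tfl1, 12.6% in ft and 33.4% in WT. The list was therefore lower nearly throughout in tfl1 and WT, whether or not its genes were members.

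**Figure D3:**
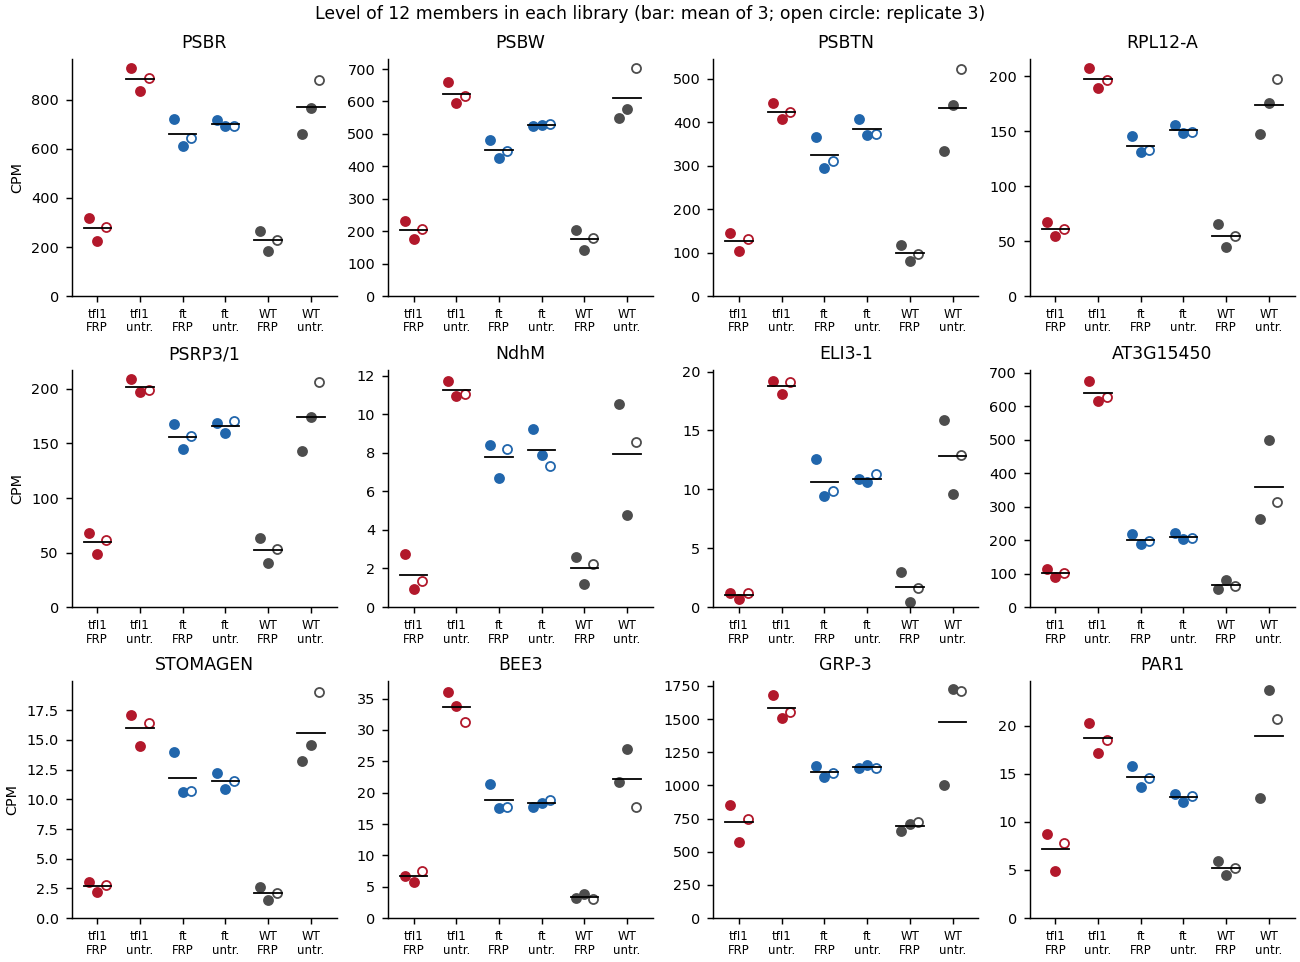
Level of 12 members in CPM (y axis, starting at 0) in each of the 18 libraries, with filled points for replicates 1 and 2, open circles for replicate 3 and bars for the mean of 3. In PSBR the FRP libraries are at 225 to 320 CPM in tfl1 and 185 to 267 CPM in WT, whereas the 6 ft libraries lie between 612 and 721 CPM whichever treatment they had.

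Another 17 members encode other thylakoid proteins and electron carriers, with medians of -1.38 in tfl1, -0.13 in ft and -1.60 in WT. NdhM, a subunit of the chloroplast NADH dehydrogenase-like complex that returns electrons to plastoquinone, was the lowest ranked of them. It had 2.74, 0.948 and 1.38 CPM in FRP tfl1, against 11.7, 10.96 and 11.1 CPM in untreated tfl1. In ft it had 8.42, 6.70 and 8.18 CPM upon FRP, against 9.23, 7.87 and 7.31 CPM untreated. In WT it had 2.58, 1.22 and 2.25 CPM, against 10.5, 4.76 and 8.57 CPM, and untreated WT replicate 2 was the low one. The same complex was represented by PnsB4, PnsB5 and PnsL4, and by CRR41 and CRR42, which are needed for its assembly.

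PnsL4, an immunophilin-like lumenal subunit, lay at the lower edge of the ft band, at 31.8, 26.5 and 29.8 CPM in FRP ft and 34.7, 35.0 and 35.3 CPM in untreated ft. Its log2 ratio was -0.25 in ft, where the groups did not overlap, -1.21 in tfl1 and -1.66 in WT. AT4G01150, a CURVATURE THYLAKOID 1A-like protein of the kind that bends the grana margins, was at the same edge, with 279, 244 and 259 CPM in FRP ft and 309, 308 and 313 CPM in untreated ft. The ATP synthase subunit genes ATPD and PDE334 had log2 ratios of -1.78 and -1.21 in tfl1, -0.06 and -0.09 in ft and -1.47 and -1.28 in WT. The petM subunit of the cytochrome b6f complex (AT2G26500) had -1.38 in tfl1, 0.02 in ft and -1.64 in WT. So the dehydrogenase-like complex, the cytochrome complex, the ATP synthase and both photosystems each had at least 1 member.

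The plastid ribosome and plastid translation supplied 15 members, with medians of -1.43 in tfl1, -0.18 in ft and -1.76 in WT. Of these, PSRP3/1, a plastid-specific protein of the small subunit (AT1G68590, chr1:25757404-25758411), had the lowest rank. It had 68.1, 48.6 and 61.4 CPM in FRP tfl1, against 209, 197 and 199 CPM in untreated tfl1. In ft it had 167, 145 and 157 CPM, against 169, 160 and 170 CPM untreated, and in WT 63.7, 40.8 and 53.3 CPM, against 143, 174 and 206 CPM. The ft groups overlapped, and FRP and untreated libraries were far apart in the others.

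RPL12-A, one of the near-identical genes for the L12 stalk protein, had 67.8, 54.8 and 60.7 CPM in FRP tfl1, against 208, 190 and 197 CPM in untreated tfl1. It had 146, 131 and 133 CPM in FRP ft, against 156, 149 and 149 CPM in untreated ft. The log2 ratios of RPL24, a large-subunit protein, were -1.50 in tfl1, -0.20 in ft and -1.80 in WT. For RPS9 of the small subunit they were -1.60 in tfl1, -0.25 in ft and -1.89 in WT. EMB3137 and EMB3113, S13 and S5 family proteins with embryo-lethal mutants, had -1.55 and -1.63 in tfl1, -0.15 and -0.18 in ft, and -1.76 and -1.56 in WT.

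Of all 21277 genes tested, 0.705% were members. Among ribosomal proteins, this was so for 11 of 80 organellar genes, 3 of 93 whose compartment the annotation does not name and 0 of 161 cytosolic ones. At such a share of all genes nothing is read from a count of 0 in a list of this size. In the 12-library fit the cytosolic list had a median log2 fold change of 0.01 in tfl1, 0.38 in ft and -0.92 in WT, and 7, 1 and 136 of its genes were called lower while 15, 85 and 4 were called higher. The organellar list had medians of -0.37 in tfl1, 0.01 in ft and -0.98 in WT, with 40, 4 and 65 called lower and 10, 11 and 3 called higher. Of all genes tested, 21.5% were called lower and 24.6% higher in tfl1, 12.6% and 12.8% in ft, and 33.4% and 33% in WT. In this fit, the cytosolic list was thus lower in WT but not in tfl1, and the organellar list was lower in both. The WT libraries in it also differed in the slope on transcript length, at 0.42 and 0.43 after FRP and -0.47 and -0.48 untreated. In ft the slopes were -0.28 and -0.12 after FRP and 0.04 and -0.01 untreated. The part of transcript length in these lists was not tested.

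Plastid gene expression and import were represented by 5 members, the transcription factor gene CIA2, the translocase subunit gene SECE1, PTAC7 of the plastid transcription machinery, the RNA-binding protein gene AT2G37220 and MORF9, an RNA editing factor. AT2G37220 was the most abundant, at 304, 233.96 and 275 CPM in FRP tfl1, against 683, 620 and 642 CPM in untreated tfl1. Its ft libraries had 550, 481 and 519 CPM upon FRP, against 623, 595 and 611 CPM, so that FRP ft was the lower without overlap at a log2 ratio of -0.24. CIA2, which activates genes for plastid protein import and plastid ribosomes, had 23.8, 18.9 and 21.8 CPM in FRP tfl1, against 71.04, 65.0 and 68.6 CPM in untreated tfl1. In ft it was at 46.3, 41.8 and 41.8 CPM, against 48.9, 45.9 and 50.7 CPM. CIA2 thus lay lower in ft than in untreated tfl1 whichever treatment ft had received.

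Chlorophyll and haem synthesis had 3 members. CHLI1, a subunit of the magnesium chelatase, was at 125, 97.0 and 114 CPM in FRP tfl1, against 269, 247 and 257 CPM in untreated tfl1, and at 217, 196 and 210 CPM in FRP ft, against 228, 227 and 226 CPM in untreated ft. The others were HEME2, a uroporphyrinogen decarboxylase, and EMB3143, a YCF54 protein of chlorophyll synthesis. Over the 3 genes, the medians were -1.36 in tfl1, -0.20 in ft and -1.44 in WT.

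In plastid redox control, 5 members had medians of -1.14 in tfl1, -0.19 in ft and -1.41 in WT. FTRA2, a subunit of the ferredoxin-thioredoxin reductase, had 18.5, 15.4 and 16.8 CPM in FRP tfl1, against 51.7, 48.2 and 50.7 CPM in untreated tfl1. The thioredoxin gene ty2 had log2 ratios of -1.14 in tfl1, -0.19 in ft and -1.60 in WT. For AT3G11630 of the thioredoxin superfamily they were -1.10 in tfl1, -0.17 in ft and -1.23 in WT. CDSP32, a drought-induced thioredoxin-like protein, and DHAR3, a dehydroascorbate reductase whose G-box window is shown above, completed the group. The wider list of redox and detoxification genes was mixed, with 119 of 407 called lower and 61 higher in tfl1, 50 lower and 61 higher in ft, and 146 lower and 107 higher in WT. The shares called over all genes are given above with the ribosomal lists.

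Regulators of light response, hormones and growth made up 14 members, with medians of -1.28 in tfl1, -0.05 in ft and -1.41 in WT. STOMAGEN, a secreted peptide that promotes stomata (AT4G12970, chr4:7585869-7587099), had 3.05, 2.18 and 2.78 CPM in FRP tfl1, against 17.1, 14.5 and 16.4 CPM in untreated tfl1. The ft apices held 14.0, 10.6 and 10.7 CPM, against 12.2, 10.9 and 11.5 CPM. In WT it had 2.58, 1.56 and 2.14 CPM, against 13.2, 14.6 and 19.1 CPM. The ft groups overlapped, and no FRP library of tfl1 or WT came near an untreated one.

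BEE3, a bHLH factor induced by brassinosteroids (AT1G73830), had 6.65, 5.75 and 7.58 CPM in FRP tfl1, against 36.1, 33.8 and 31.2 CPM in untreated tfl1. In ft it had 21.4, 17.5 and 17.7 CPM upon FRP, against 17.8, 18.3 and 18.9 CPM untreated. In WT it had 3.21, 3.86 and 3.06 CPM, against 21.7, 27.0 and 17.8 CPM. Untreated tfl1 was above all other libraries for this gene, while ft stayed within the range of untreated WT apart from values just under its lowest.

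PAR1, a bHLH-like protein that restrains shade avoidance, had 8.70, 4.94 and 7.84 CPM in FRP tfl1, against 20.3, 17.2 and 18.5 CPM in untreated tfl1. It was at 15.8, 13.6 and 14.5 CPM in FRP ft, against 12.9, 12.04 and 12.7 CPM in untreated ft, so FRP ft was the higher without overlap. KAI2, the karrikin receptor, had log2 ratios of -1.81 in tfl1, -0.15 in ft and -1.35 in WT. The growth-promoting factor gene TCP14 had -1.28 in tfl1, -0.07 in ft and -1.47 in WT, and COL3, a B-box factor of light signalling, had -1.28 in tfl1, -0.21 in ft and -1.34 in WT. Of peptides, RTFL17 had -1.19 in tfl1, -0.01 in ft and -1.56 in WT, and CLE16 had -1.08 in tfl1, -0.23 in ft and -1.88 in WT.

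The remaining 79 members fell under no such role, with medians of -1.33 in tfl1, -0.08 in ft and -1.47 in WT. Some of them still name a plastid location, such as AT2G45180 (chloroplast thylakoid membrane) and AT3G15630 (chloroplast). ELI3-1, annotated as cinnamyl alcohol dehydrogenase 7 (AT4G37980, chr4:17852441-17854608), had the lowest rank of all. It had 1.18, 0.697 and 1.22 CPM in FRP tfl1, against 19.2, 18.1 and 19.2 CPM in untreated tfl1. Its ft libraries were at 12.6, 9.42 and 9.90 CPM, against 10.9, 10.6 and 11.3 CPM, and in WT 3.003, 0.440 and 1.63 CPM, against 15.9, 9.60 and 12.9 CPM. The ft groups overlapped around the level of the lowest untreated WT libraries.

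AT3G15450, an aluminium-induced family protein, had the next lowest rank. It had 113, 89.5 and 103 CPM in FRP tfl1, against 676, 615 and 628 CPM in untreated tfl1. In ft it was at 218, 188 and 198 CPM, against 221, 202 and 205 CPM, and in WT at 53.7, 80.8 and 64.4 CPM, against 263, 498 and 313 CPM. Untreated tfl1 was above every untreated WT library, and both ft groups were below them.

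Among the other low-ranked genes, AT1G78450, a SOUL haem-binding protein, had log2 ratios of -2.32 in tfl1, -0.10 in ft and -2.72 in WT. AT2G45180 of the lipid-transfer family had -2.28 in tfl1, -0.04 in ft and -3.28 in WT. AT3G15630, whose function is not annotated, had -1.77 in tfl1, -0.25 in ft and -2.38 in WT, and AT1G12845, also uncharacterised, had -2.11 in tfl1, -0.20 in ft and -1.75 in WT. The lipid transfer protein genes LTP5 and LTP had -1.54 and -1.19 in tfl1, -0.03 and -0.24 in ft, and -1.56 and -1.54 in WT. J8, a DnaJ-domain chaperone, had -1.26 in tfl1, -0.04 in ft and -2.10 in WT. The transcribed pseudogene AT4G04692 and the long non-coding RNA AT1G06473 had -1.41 and -1.33 in tfl1, -0.02 and 0.22 in ft, and -1.38 and -1.09 in WT. Counting ignored strand, so reads of an antisense partner cannot be told apart for any of these.

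GRP-3, a glycine-rich protein gene (AT2G05520), had the highest level of all members. It had 853, 577 and 748 CPM in FRP tfl1, against 1683, 1507 and 1555 CPM in untreated tfl1. In ft it had 1144, 1067 and 1094 CPM, against 1129, 1154 and 1134 CPM. In WT it had 654, 707 and 725 CPM, against 1000, 1728 and 1712 CPM, where the low untreated value belongs to replicate 1, the library that stood apart. That library was the lowest of the 3 untreated WT libraries for 103 of the 150 members. AT1G56220, of the dormancy and auxin associated family, was next in level outside the plastid genes, with log2 ratios of -1.11 in tfl1, 0.03 in ft and -1.09 in WT. Leaving out untreated WT replicate 1 put the members' median log2 ratio in WT at -1.59, against -1.52 with it, and 148 of the 150 were still at least 2-fold lower in both genotypes.

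Other lists held few members or none, and with 0.705% of all genes tested being members nothing is read from these counts. None of the measured genes of the circadian clock (17), light signalling (37), flowering (28), cold and drought (49), abscisic acid (29), auxin (72), gibberellin (20), cytokinin (38), ethylene response (43), defence (102), histone and cell division (87), sugar (51), flavonoid (24), transporter (410) or mitochondrial respiration (85) lists was a member. PAR1 and COL3, described above among regulators, did not match the names these lists were built from. Of the mitochondrial respiration list, 15 were called lower and 9 higher in tfl1, 4 lower and 42 higher in ft, and 67 lower and 6 higher in WT. For the light signalling list, 11 were called lower and 19 higher in tfl1, 11 lower and 17 higher in ft, and 8 lower and 25 higher in WT. Of all genes tested, 21.5% were called lower and 24.6% higher in tfl1, 12.6% and 12.8% in ft, and 33.4% and 33% in WT. The part of transcript length in these list counts was not tested. In the jasmonate list (29 genes) AOC1 was the only member.

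The rule asked that ft be level, not at which level. On the log2 scale from FRP WT (0) to untreated WT (1), the mean of the ft conditions lay at a median of 0.858, and between 0.374 and 1.67. For 133 members ft was between the WT levels and nearer to untreated WT, for 13 it was above untreated WT, for 4 it was nearer to FRP WT and for none was it below FRP WT. FRP ft was above FRP WT for all 150 members, while untreated ft was below untreated WT for 128. Over the 16929 genes at 5 CPM or more, the median of untreated ft minus untreated WT was 0.07 on the log2 scale, and over the members it was -0.17. These are descriptions, since the level of WT was part of the choice.

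The 4 members nearer to FRP WT were AT1G02610, a RING finger gene, AT3G28220, a TRAF-like gene, PP2-A13, a phloem protein gene, and AT3G49790, a carbohydrate-binding protein gene, named after their values were seen. AT1G02610 had 1.94, 2.24 and 2.41 CPM in FRP ft and 2.24, 2.49 and 2.38 CPM in untreated ft. In WT it had 0.804, 1.66 and 1.09 CPM after FRP, against 3.89, 10.15 and 3.80 CPM, so that its ft level lay below every untreated WT library and above every FRP one. At the other end, WAG2, a protein kinase that acts on auxin transporters, had 11.5, 9.80 and 9.87 CPM in FRP ft and 11.3, 9.21 and 10.13 CPM in untreated ft. Its WT libraries were at 1.0996, 2.78 and 1.97 CPM after FRP, against 6.48, 6.15 and 3.76 CPM, all below every ft library.

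**Figure D4:**
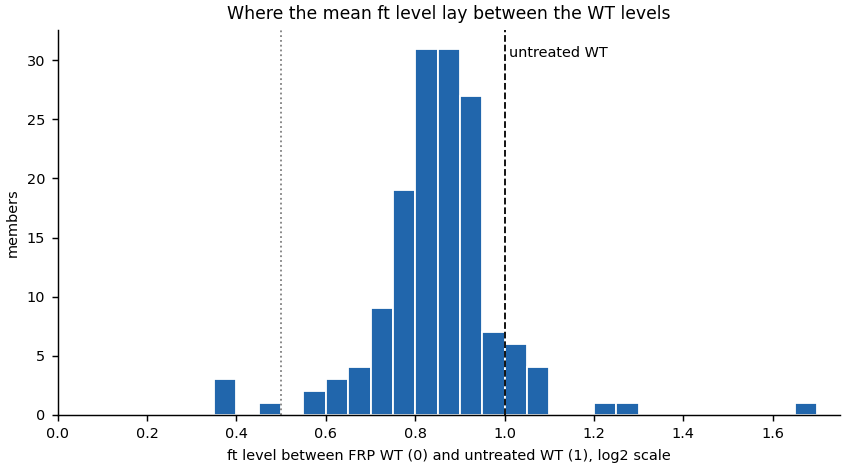
Number of members (y axis) by the mean log2 level of ft on a scale where 0 is FRP WT and 1 is untreated WT (x axis). The median is 0.858, with 13 members beyond the dashed line at untreated WT and 4 left of the dotted midline.

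How tfl1 compared with WT at the same treatment was a contrast the rule did not use, but the rule chose the members on the means of these same libraries. The counts and tests below are therefore not independent of that choice, and nothing is read from the members' share against that of all genes. In untreated apices, the 12-library quasi-likelihood test called 6 members higher in tfl1 (11.8% of all genes tested) and 7 lower (12.7%). The median log2 fold change was -0.06 over members and -0.02 over all genes. After FRP, it called 26 members higher in tfl1 than in WT, or 17.3% of members against 6.38% of all genes. None was called lower (6.53%), where 6 members had an unadjusted p below 0.05 and DESeq2 called 3. The median log2 fold change after FRP was 0.23 over members and -0.02 over all genes, and it was above 0 for 129 of 150. Of all members, 23 were called after FRP only, 10 in untreated apices only, 3 in both and 114 in neither.

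These calls rest on the 12 libraries that share replicate 3. With replicates 1 and 2 of every condition, no member was called in either contrast, while 21 were higher and 0 lower after FRP at an unadjusted p below 0.05 (5.19% and 3.24% of all genes), and 11 were higher and 1 lower in untreated apices (7.41% and 7.78%). With replicates 2 and 3 of untreated WT in place of 1 and 2, again none was called, and at an unadjusted p below 0.05 there were 33 higher and 1 lower after FRP (9.89% and 6.05% of all genes). The median after FRP remained at 0.19 and 0.21 in these library sets, against 0.00 and 0.01 over all genes. With all 18 libraries, 5 were called higher after FRP (1.76% of all genes) and 2 higher and 1 lower in untreated apices.

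**Figure D5:**
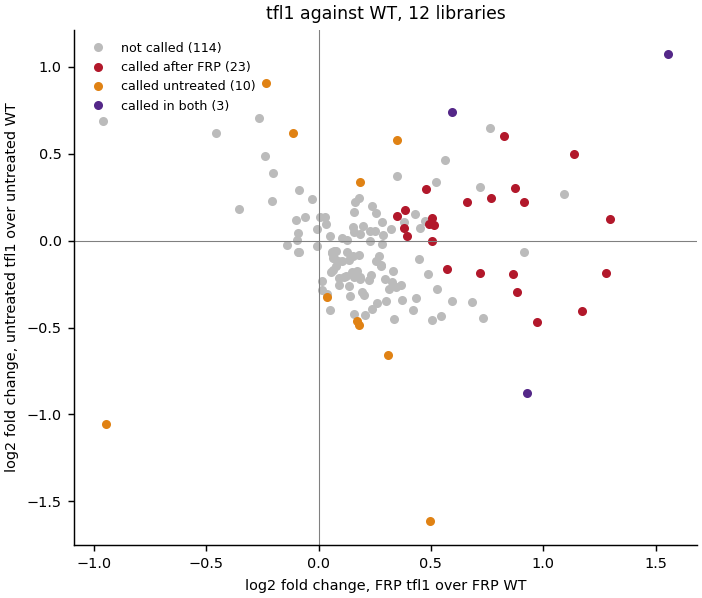
Log2 fold change of tfl1 over WT after FRP (x axis) and in untreated apices (y axis) in the 12-library fit, 1 point per member, coloured by the contrast in which it was called at an adjusted p of at most 0.005. Most points lie right of 0, and 129 of 150 are above 0 after FRP, whereas 66 of 150 are above 0 untreated.

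WAG2 was higher in tfl1 under both treatments. It had 4.601, 3.54 and 4.96 CPM in FRP tfl1, against 1.0996, 2.78 and 1.97 CPM in FRP WT, and 11.01, 10.99 and 11.4 CPM in untreated tfl1, against 6.48, 6.15 and 3.76 CPM in untreated WT. The groups did not overlap in either contrast. The 12-library edgeR log2 fold change was 1.56 ± 0.26 after FRP (SE, adjusted p = 0.0016) and 1.08 ± 0.20 untreated (SE, adjusted p = 0.0014). With replicates 1 and 2, the quasi-likelihood adjusted p was 0.37 after FRP and 0.30 untreated, and with replicates 2 and 3 of untreated WT instead, 0.19 and 0.039.

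AOC1, an allene oxide cyclase of jasmonate synthesis, had 8.30, 5.36 and 6.27 CPM in FRP tfl1, against 3.09, 1.86 and 2.76 CPM in FRP WT. No library of the groups overlapped, and the edgeR log2 fold change was 1.28 ± 0.16 (SE, adjusted p = 0.00024, 0.26 with replicates 1 and 2, 0.031 with 2 and 3 of untreated WT instead). AT2G42900, of the basic secretory protein family, had 2.49, 1.59 and 2.495 CPM in FRP tfl1, against 1.06, 1.07 and 0.919 CPM in FRP WT. Its groups did not overlap either, with an edgeR log2 fold change of 1.29 ± 0.21 (SE, adjusted p = 0.0012, 0.33 with replicates 1 and 2, 0.17 with 2 and 3 of untreated WT instead).

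In untreated apices, AGT, an aminotransferase of photorespiration, had 143, 131 and 138 CPM in tfl1, against 105, 71.4 and 69.5 CPM in WT, without overlap. Its edgeR log2 fold change was 0.91 ± 0.09 (SE, adjusted p = 3.3e-05), with an adjusted p of 0.30 with replicates 1 and 2 and of 0.018 with 2 and 3 of untreated WT instead. AT3G24420, an alpha/beta hydrolase, had 15.5, 15.2 and 14.7 CPM in untreated tfl1, against 11.03, 9.02 and 8.00 CPM in untreated WT. Its edgeR log2 fold change was 0.74 ± 0.09 (SE, adjusted p = 0.00012, 0.15 with replicates 1 and 2, 0.0073 with 2 and 3 of untreated WT instead). Both genes were thus separated from WT in every library, by differences whose test was decided by which replicates entered it.

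Lower in untreated tfl1 was ETC1, a small MYB protein that restrains trichome formation, at 3.83, 2.78 and 3.16 CPM, against 4.17, 7.46 and 6.21 CPM in untreated WT. The edgeR log2 fold change was -1.05 ± 0.16 (SE, adjusted p = 0.00042, 0.23 with replicates 1 and 2, 0.0076 with 2 and 3 of untreated WT instead). AT3G28220 had 33.2, 37.5 and 36.2 CPM in untreated tfl1, against 25.04, 86.1 and 114 CPM in untreated WT, and 4CL8, a coumarate-CoA ligase-like gene, had 10.95, 17.4 and 13.6 CPM, against 5.76, 18.6 and 24.0 CPM. For both, untreated WT replicate 1 lay below all tfl1 libraries and replicates 2 and 3 above them. Their edgeR log2 fold changes were -1.62 ± 0.15 (SE, adjusted p = 1.7e-05) and -0.88 ± 0.15 (SE, adjusted p = 0.00073) with the 12 libraries, which leave out that replicate. With replicates 1 and 2, the values were -0.70 for AT3G28220 and 0.17 for 4CL8, with edgeR adjusted p of 0.63 and 0.91. With replicates 2 and 3 of untreated WT instead, they were -1.54 and -0.63, with adjusted p of 0.026 and 0.13.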

How the data were processed

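The authors deposited raw read counts per gene, 1 file per library, for 18 libraries. Per the study's methods, reads were trimmed with Trimmomatic, aligned to TAIR10 with STAR (2.5.3a) and counted without regard to strand on Araport11 genes with HTSeq (0.7.2), per the submitters' processing notes. CPM were computed over all gene rows, 20470477 to 35851716 counts per library. The members, gene lists (25, from 23 planned ones after ribosomal proteins were split by compartment), roles and motifs were chosen with earlier results of these data known. Named genes are the 10 of lowest rank, up to 3 per list, the 5 of highest CPM, up to 3 per direction in each contrast of tfl1 with WT, those at the threshold and those at the ends of the ft band. FT and TFL1 were named as checks of the labels. Others (the 6 windows with a G-box, examples of each role and the extremes of the ft level) were picked after their values were seen.

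The main test was edgeR (4.0.16) quasi-likelihood with TMM scaling on the 12 libraries that the labels mark as analysed, with all 6 conditions in 1 fit, a minimum of 10 counts in any 2 libraries (21277 genes, all 150 members among them) and Benjamini-Hochberg adjustment over all of them. The threshold was an adjusted p of 0.005. Each SE given was derived from the test, as the absolute log2 fold change over the square root of the quasi-likelihood F statistic. DESeq2 (1.42.0), other library sets, scaling, filters, a length trend and replicate blocks were alternatives. Nothing states which replicates came from separate plants beyond the series calling them biological, so p-values measure the spread between these libraries only. Sequences and locations came from RefSeq (TAIR10.1). The code was tested on simulated data.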

Additional observations from a re-analysis of the deposited data

How the results depend on the processing

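Over all alternatives, 114 to 150 members were called lower upon FRP in tfl1 and 124 to 150 in WT, with the fewest from replicates 1 and 2. Leaving out each of the 12 libraries in turn gave 150 members lower in tfl1, 0 called in ft and 148 to 150 lower in WT, where the lone library left in a condition is assumed to vary like the others, 3 to 11 higher and 2 to 13 lower in untreated tfl1, 7 to 31 higher and 0 to 1 lower in FRP tfl1, and leaving out each of the 18 libraries kept 106 to 148 of the same 150 members. Higher calls after FRP numbered 7 without replicate 1 of FRP tfl1 or replicate 3 of FRP WT, and 12 without replicate 1 of FRP WT. In untreated tfl1, 3 were higher and 2 lower without its replicate 1 or 3, 10 higher and 13 lower without replicate 2 of untreated WT, 11 higher and 4 lower without replicate 1 or 3 of FRP WT, and 3 lower without replicate 3 of untreated WT or untreated ft. The members called in ft numbered 1 with DESeq2, 11 with the length trend removed and 4 at an adjusted p of at most 0.05. Members higher in untreated tfl1 than untreated WT numbered 6 in the main test, 2 with all 18 libraries, 12 with DESeq2, 15 with no filter on low counts, 12 with the length trend removed, 21 at 0.05 and 1 with at least a 2-fold change. Those lower numbered 7 in the main test, 1 with all 18 libraries, 2 with only the groups compared in the fit, 11 with the length trend removed, 29 at 0.05 and 2 with a 2-fold change. Members higher in FRP tfl1 than FRP WT numbered 26 in the main test, 5 with all 18 libraries, 8 with only the groups compared, 53 at 0.05 and 5 with a 2-fold change. Those lower numbered 0 in the main test, 1 with all libraries but untreated WT replicate 1, 3 with DESeq2, 2 with no filter, 2 with the length trend removed and 3 at 0.05. With the sets chosen after seeing the data, replicates 1 and 2 of every condition and the same with replicates 2 and 3 of untreated WT, no member was called between tfl1 and WT in either direction (0 in each of the 4 counts), and 4CL8 turned to 0.17 in untreated tfl1 with replicates 1 and 2, since untreated WT replicate 1 is then in the fit. Of the 150 members, an ft band of 0.15 kept 80, a band of 0.5 kept 65 and removal of the length trend kept 59.

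The replicate numbers were not taken to pair the samples, and fits with a replicate block are given beside the main one. Deviations from the condition means correlated above 0.1 in 19 of 45 pairs of same-numbered libraries. This check cannot decide against pairing. Replicate 3 lies near a weighted sum of replicates 1 and 2 outside untreated WT, so its deviations are small and its pairs say little. As a hint from the data, same-numbered libraries of replicates 1 and 2 correlated at 0.43 to 0.73 in all 12 pairs among ft and tfl1 conditions. With replicate 3 between them, the pairs of replicate 2 nearly repeat those of replicate 1. For FRP ft with FRP tfl1 the values were 0.726 in replicate 1 and 0.725 in replicate 2. The 10 pairs with untreated WT were at -0.72 to -0.09, and the 15 of replicate 3 at -0.19 to 0.27. When the 12-library fit had a replicate block, 150 members were lower in tfl1, 0 called in ft and 150 lower in WT, 7 were higher and 31 lower in untreated tfl1, and 38 were higher and 1 lower in FRP tfl1. With a replicate block in all 18 libraries, 3 were higher and 0 lower in untreated tfl1 and 5 higher in FRP tfl1.

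Among the 9 tests of a named gene, 146 of the alternative values kept direction and call, 42 kept direction without the call and 1 turned. Depth limits the least abundant members, such as ELI3-1 in FRP libraries, more than the others. The small number of clearly independent libraries per condition limits every test.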
